A study of Mus musculus with 9 samples.

Results

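Potassium channel genes of the mouse spinal cord are described here: every protein-coding gene whose symbol starts with Kcn and that had at least 10 read counts in at least 3 of 9 libraries. Of 98 identifiers with such a symbol among 27179 in the deposited table, 4 belonged to non-coding RNAs and 13 of the 94 coding genes did not reach the count rule, which left 81 members. RNA was sequenced from whole spinal cord of 9 C57BL/6 mice, 1 poly-A selected library per mouse and 3 mice in each of 3 groups. The EAE+EHP-101 mice had experimental autoimmune encephalomyelitis (EAE), an immune-mediated model of multiple sclerosis, and were given EHP-101 orally at 20 mg/kg. The EAE mice had the disease without the compound, and the Control mice had neither. EHP-101 is known by a code name, and published work describes it as acting on PPAR gamma and the CB2 receptor. The sources used here do not state how EAE was induced, how old the mice were, on which day cord was taken or for how long EHP-101 was given, and no label names a vehicle for the EAE or Control mice.

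Potassium channels let potassium ions leave or enter cells along their gradient, and so set the resting potential, end action potentials and limit repetitive firing. Voltage-gated channels (Kv1 to Kv4, the Kcnh and Kcnq families) open on depolarisation, calcium-activated channels (Kcnma1 and the Kcnn family) open when calcium enters, and inward rectifiers (Kcnj) and two-pore domain channels (Kcnk) conduct near rest. In white matter, Kv1.1 and Kv1.2 lie beside the nodes of Ranvier beneath the myelin, M channels (Kcnq) lie at nodes and axon initial segments, and Kir4.1 (Kcnj10) of astrocytes and oligodendrocytes takes up potassium released by firing axons. Lymphocytes, macrophages and microglia carry channels of their own, among them Kv1.3 (Kcna3), KCa3.1 (Kcnn4), Kir2.1 (Kcnj2) and the two-pore channels TWIK2 (Kcnk6) and THIK1 (Kcnk13).

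The windows of 250 bases before to 50 bases after the annotated start are printed for the 3 members whose sequence is referred to below, from the RefSeq table of build GRCm38.p6. Kcnn4 and Kcnj2 are shown because both were higher in EAE and hold the letters CACGTG, and Kcnj16 because it lies beside Kcnj2 and was lower. Capitals mark CACGTG in Kcnn4 and Kcnj2, and a match to the interferon regulatory factor (IRF) motif on the reverse strand in Kcnj16, of whose 4 annotated starts only the window with these letters is printed.
Kcnn4 (chr7:24370013-24370312, plus strand): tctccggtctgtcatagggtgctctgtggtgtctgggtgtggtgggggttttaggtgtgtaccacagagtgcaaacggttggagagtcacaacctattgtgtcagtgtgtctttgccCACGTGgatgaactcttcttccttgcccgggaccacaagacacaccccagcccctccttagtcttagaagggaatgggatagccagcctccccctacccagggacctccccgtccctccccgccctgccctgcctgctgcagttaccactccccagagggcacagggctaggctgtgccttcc
Kcnj2 (chr11:111065914-111066213, plus strand): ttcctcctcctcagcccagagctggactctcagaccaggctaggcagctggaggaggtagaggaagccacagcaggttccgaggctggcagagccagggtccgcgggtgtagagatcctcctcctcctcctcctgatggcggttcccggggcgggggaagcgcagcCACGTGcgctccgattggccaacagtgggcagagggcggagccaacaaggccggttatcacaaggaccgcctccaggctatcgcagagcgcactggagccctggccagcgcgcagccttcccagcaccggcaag
Kcnj16 (chr11:111023610-111023909, plus strand): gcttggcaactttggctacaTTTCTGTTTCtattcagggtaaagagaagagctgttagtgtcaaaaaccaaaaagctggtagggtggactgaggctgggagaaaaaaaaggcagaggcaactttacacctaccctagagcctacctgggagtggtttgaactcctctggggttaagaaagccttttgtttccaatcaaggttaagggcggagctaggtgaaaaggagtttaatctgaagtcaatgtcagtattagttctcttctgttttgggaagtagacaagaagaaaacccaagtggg

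Each library held between 30448507 and 32661741 counts. Values are counts scaled to a common library size (CPM), and a gene was called when its adjusted p was under 0.05 in edgeR's quasi-likelihood test with Benjamini-Hochberg adjustment over 16749 genes, all 81 members among them. The members took 0.577% to 0.618% of all counts in EAE+EHP-101 mice, 0.529% to 0.610% in EAE mice and 0.599% to 0.708% in Control mice. On the first principal component of the members' log2 CPM, which carried 62.9% of their variance, the EAE+EHP-101 mice lay at -0.846, 0.677 and 1.23, the EAE mice at 1.96, 3.43 and 1.48, and the Control mice at -2.41, -2.80 and -2.73. Treated mice lay between the other groups, with replicate 1 nearest to Control.

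At the rule's edge, Kcnk7 reached 10 counts in 5 libraries, Kcng3 in 6, Kcnn4 in 7 and Kcnj4 in 8, while the other 77 members did so in all 9. Just outside, Kcne2 had 4 to 10 counts and reached the rule in 2 libraries. Each of the other 12 coding genes left out had at most 6 counts in any library. The exon length in the deposited table ran from 0.813 kb to 11.582 kb over the members and matched the sum of their exons in all 81.

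Per exon length, glial Kir4.1 and a Kv1 beta subunit were the most abundant members. Divided by exon length, the level of Kcnj10 was highest in each group, at 201 ± 4.18 CPM per kb in EAE+EHP-101 mice, 204 ± 8.0 in EAE mice and 221 ± 10.2 in Control mice (SD, n = 3 each). Next came Kcnab2, a beta subunit of Kv1 channels, with 139 ± 7.86 CPM per kb in EAE+EHP-101 mice, 131 ± 10.5 in EAE mice and 139 ± 12 in Control mice. Kcna1 averaged 72.2 ± 4.79 CPM per kb in EAE+EHP-101 mice, 71.4 ± 4.28 in EAE mice and 87.7 ± 11.4 in Control mice. Kcnj10 and Kcnab2 held ranks 1 and 2 in every group.

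Lower in this order, Kcna2 stood at rank 6 in EAE+EHP-101 mice, rank 7 in EAE mice and rank 5 in Control mice, with 46.6 ± 3.23, 43.3 ± 4.74 and 66.2 ± 6.59 CPM per kb in the same groups. Neighbours in the order overlapped within 1 SD in places, such as Kcnk1 at 45.1 ± 3.42 and Kcnab3 at 44.7 ± 4.29 CPM per kb in Control mice. Kcne1l stood at rank 23 in EAE+EHP-101 mice, 18 in EAE mice and 31 in Control mice, and Kcnk6 at rank 56, 47 and 68 in the same groups. The least abundant member was Kcng3, a modifier subunit without current of its own, with 0.0894 ± 0.0314 CPM per kb in EAE+EHP-101 mice, 0.0862 ± 0.0171 in EAE mice and 0.142 ± 0.0442 in Control mice.

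**Figure D1:**
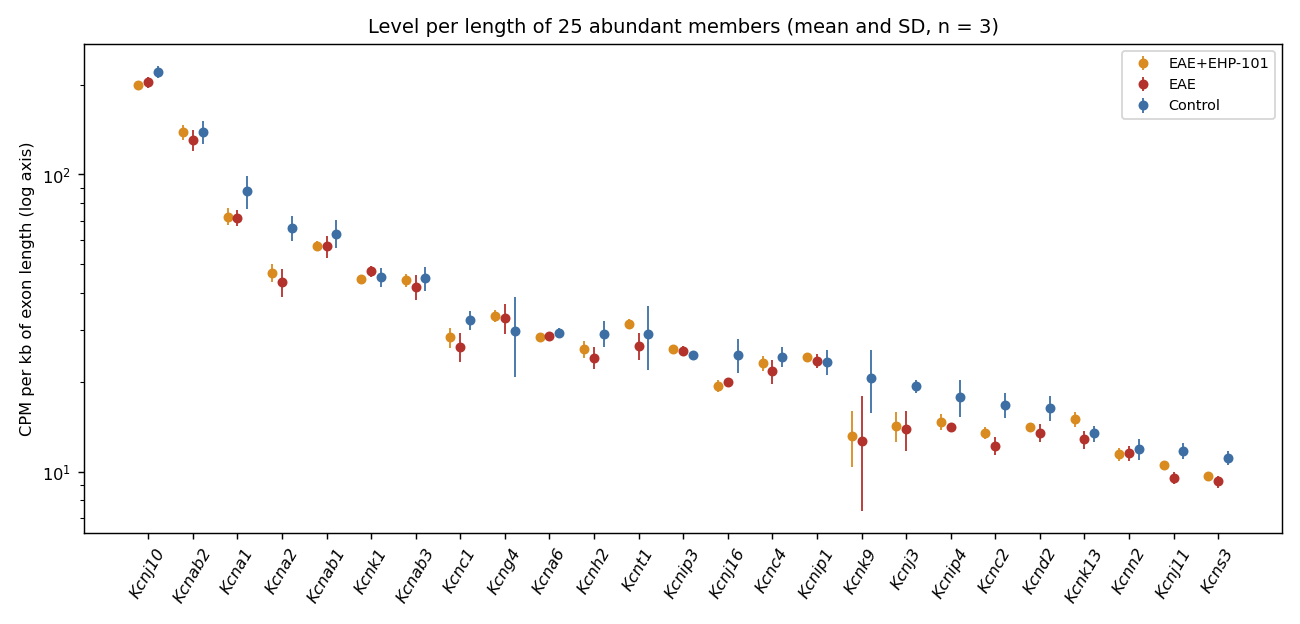
CPM per kb of exon length on a log axis for 25 members abundant in Control mice, with EAE+EHP-101, EAE and Control side by side (mean and SD, n = 3). Kcnj10 is at the top in all groups, near 200 CPM per kb, and the Control means of Kcna2 and Kcnj3 stand clear of those of both EAE groups.

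In EAE against Control, more potassium channel genes fell than rose. The 81 members held 35 calls, where 37% of all genes tested were called in either direction. Of them 29 were lower in EAE (35.8%, against 16.7% of all genes tested), 6 were higher (7.41%, against 20.2% of all genes tested), and 46 were not called. The median log2 fold change of the members was -0.25, against 0.01 over all genes tested. The falls were mostly modest, with a median of 1.36-fold and 3 of at least 2-fold, and the rises fewer but steeper, with a median of 2.29-fold and 4 of at least 2-fold. At an unadjusted p under 0.05 there were 43 members (46.7% of all genes tested).

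**Figure D2:**
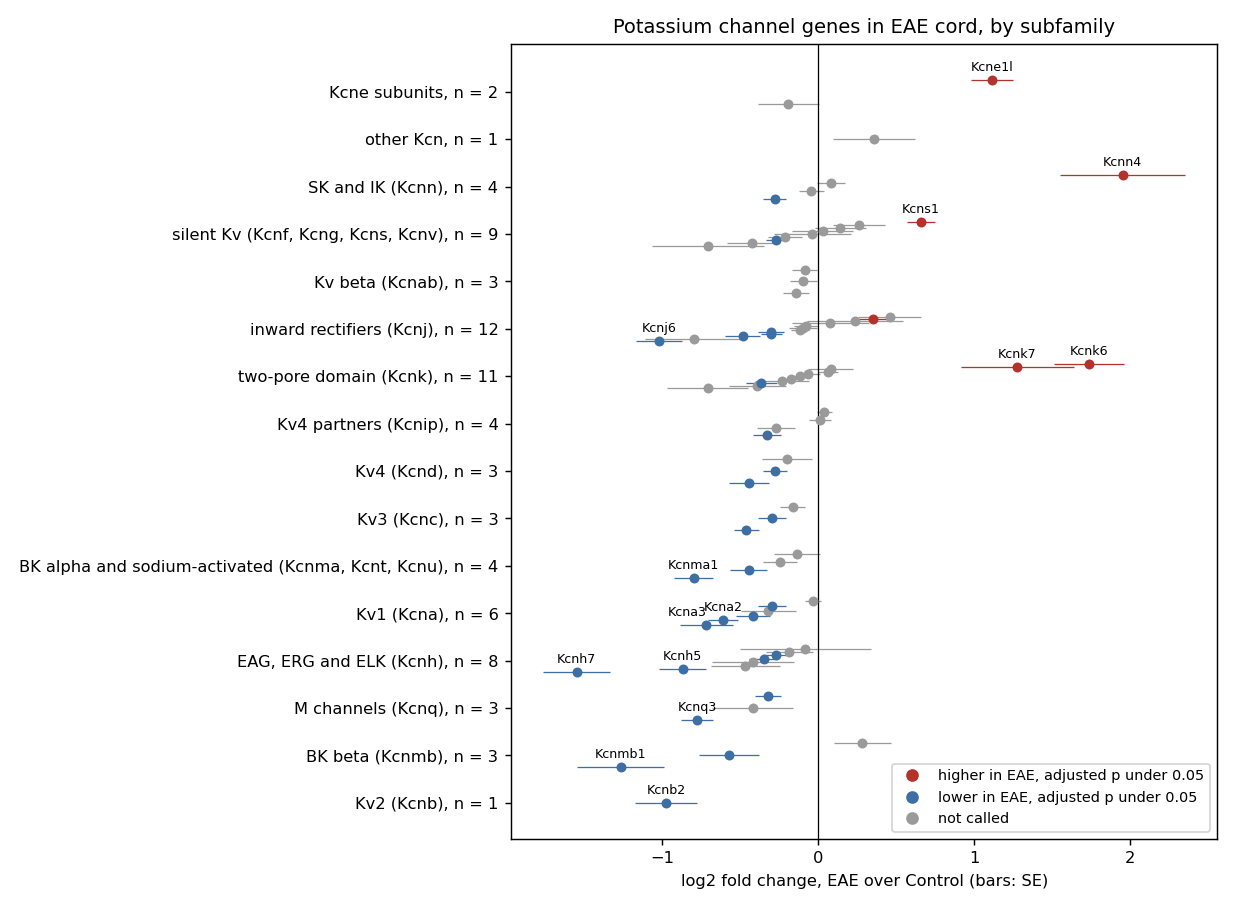
Each point is the log2 fold change of 1 member in EAE over Control with its SE, grouped by subfamily and coloured by call. Of the 77 points drawn, 27 are called lower (blue), 6 are called higher (red) and 44 are not called (grey), and the red points lie in the Kcne, Kcnn, Kcns, Kcnk and Kcnj groups.

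Of the 35 calls, 28 held with each mouse left out in turn. Kcna1 was lost without Control replicate 1, EAE replicate 1 or EAE replicate 2, Kcnj2 without Control replicate 1 or 2 or EAE replicate 2, and Kcnd3 without Control replicate 2 or EAE replicate 2 or 3. Kcnc1, Kcnh2 and Kcnk7 were each lost without Control replicate 1 or 2 or EAE replicate 1 or 2. Kcnmb2 was lost without Control replicate 2 or 3 or any 1 EAE mouse.

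The members' libraries separated in the same direction. For 32 members each EAE mouse was below each Control mouse (21.1% of all genes tested did so), and for 6 members each EAE mouse was above (25.6% of all genes tested). In whole cord, fewer cells of a type and less RNA per cell cannot be told apart. The 10 pan-neuronal markers had summed levels of 8449 to 8944 CPM in EAE+EHP-101 mice, 7961 to 8992 CPM in EAE mice and 8607 to 9728 CPM in Control mice, with 3 of 10 lower in EAE and none higher. The 5 spinal interneuron markers summed to 682 to 827 CPM in EAE+EHP-101 mice, 622 to 776 CPM in EAE mice and 937 to 1051 CPM in Control mice, with 3 of 5 lower in EAE, and none of 5 motor neuron markers was called. Of all genes tested, 16.7% were lower in EAE. The part of neurons in the falls was not tested.

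The 6 members that rose in EAE were Kcnn4, Kcnk6, Kcnk7, Kcne1l, Kcns1 and Kcnj2. Kcnn4 (chr7:24370263-24385212, plus strand, build mm10), the calcium-activated channel KCa3.1 of activated T cells and microglia, had 0.256, 0.614 and 1.057 CPM in EAE+EHP-101 mice, 1.66, 1.92 and 1.59 CPM in EAE mice and 0.46, 0.601 and 0.262 CPM in Control mice. All 3 EAE mice lay above the other 6, although the gene reached no more than 60 counts in any library. Its log2 fold change in EAE over Control was 1.95 ± 0.40 (SE), 3.87-fold, with an adjusted p of 0.00323.

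Kcnk6 (chr7:29221928-29232522, minus strand) encodes TWIK2, a two-pore channel whose potassium efflux is known to precede NLRP3 inflammasome activation in mouse macrophages. It had 4.57, 7.7 and 9.67 CPM in EAE+EHP-101 mice, 12.8, 12.9 and 11.2 CPM in EAE mice and 3.19, 3.8 and 4.06 CPM in Control mice. The groups did not overlap, and the log2 fold change in EAE over Control was 1.74 ± 0.22 (SE, adjusted p 0.000213), 3.34-fold. Kcnk7, a two-pore family member not known to carry current by itself, had 0.32, 0.388 and 0.256 CPM in EAE+EHP-101 mice, 0.574, 0.673 and 0.343 CPM in EAE mice and 0.164, 0.221 and 0.262 CPM in Control mice. Its log2 fold change was 1.28 ± 0.36 (SE, adjusted p 0.0169) at 5 to 21 counts per library, and the adjusted p reached 0.0868 when single mice were left out.

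Kcne1l (chrX:142304753-142306198, minus strand), also named Kcne5, encodes a single-span subunit that modifies voltage-gated channels such as Kcnq1. It had 15.4, 21.2 and 22.3 CPM in EAE+EHP-101 mice, 28.6, 29.4 and 24.2 CPM in EAE mice and 12, 12.1 and 13.9 CPM in Control mice. Every EAE mouse was above every treated mouse, and every treated mouse above every Control mouse. The log2 fold change in EAE over Control was 1.11 ± 0.13 (SE, adjusted p 0.000158). Its partner Kcnq1, of whose exon length 3.99% lies under the opposite-strand Kcnq1ot1, had 0.768, 1.0 and 1.31 CPM in EAE+EHP-101 mice, 0.846, 0.865 and 0.78 CPM in EAE mice and 1.31, 1.2 and 0.819 CPM in Control mice, and was not called (log2 fold change -0.42 ± 0.26, adjusted p 0.231).

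Kcns1, the silent subunit Kv9.1 that modifies Kv2 channels, had 8.09, 8.25 and 8.84 CPM in EAE+EHP-101 mice, 10.8, 11.3 and 10.4 CPM in EAE mice and 6.44, 6.87 and 7.24 CPM in Control mice. The 3 groups were in separate ranges, with a log2 fold change of 0.66 ± 0.09 (SE, adjusted p 0.000359) in EAE over Control. It was the only one of 9 silent subunits to rise, and Kcns3 (Kv9.3) fell by 0.27 on the log2 scale (adjusted p 0.00796). The Kv2 channel Kcnb2 was lower, as given below.

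Kcnj2 (chr11:111066164-111076825, plus strand), the inward rectifier Kir2.1 of microglia, endothelium and neurons, had 17.2, 16.9 and 15.7 CPM in EAE+EHP-101 mice, 20.0, 26.6 and 20.9 CPM in EAE mice and 17.6, 16 and 19.3 CPM in Control mice. Its log2 fold change in EAE over Control was 0.35 ± 0.11 (SE, adjusted p 0.0289), and without EAE replicate 2 it was 0.18 with an adjusted p of 0.191. Kcnj16 (chr11:110968033-111027968, plus strand), the Kir5.1 partner of Kir4.1, ends 38.2 kb before Kcnj2 on the same strand of chromosome 11. Kcnj16 had 81.3, 78.7 and 74 CPM in EAE+EHP-101 mice, 78.8, 81.7 and 81.4 CPM in EAE mice and 90.4, 93.3 and 114 CPM in Control mice, a log2 fold change of -0.30 ± 0.08 (SE, adjusted p 0.0154). Of the neighbouring pairs within 100 kb, Kcnj16 and Kcnj2 were called in opposite directions. Kcna3 and Kcna2, 63.4 kb apart on chromosome 3, both fell.

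Markers of infiltrating myeloid cells, T cells and microglia were higher in EAE, while neutrophil and erythroid markers were not called higher. The 6 infiltrating myeloid markers summed to 26.5, 55.2 and 75.6 CPM in EAE+EHP-101 mice, 421, 598 and 430.3 CPM in EAE mice and 15.1, 9.30 and 11.8 CPM in Control mice, with 5 of 6 called higher in EAE. The 7 T cell markers summed to 1.63, 5.37 and 8.33 CPM in EAE+EHP-101 mice, 16.8, 14.8 and 13.5 CPM in EAE mice and 1.12, 0.981 and 1.31 CPM in Control mice, with all 7 called higher. The 8 microglia markers summed to 472 to 642 CPM in EAE+EHP-101 mice, 868 to 1167 CPM in EAE mice and 391 to 486 CPM in Control mice, with 6 of 8 called higher. Treated replicate 1 had the lowest sums of the treated mice for the 3 lists and also the lowest Kcnn4, Kcnk6 and Kcne1l. The 6 neutrophil markers summed to 59.7, 19.9 and 21.2 CPM in EAE+EHP-101 mice, 21.0, 19.0 and 8.08 CPM in EAE mice and 4.07, 4.11 and 13 CPM in Control mice. None of the 5 neutrophil markers tested was called in EAE, and both erythroid markers tested were lower. The part of all these cells in the members' rises was not tested.

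Other channels known from immune cells were not called higher in EAE. Kcna3 (Kv1.3), which is known from effector memory T cells and microglia as well as from neurons, had 2.56, 2.1 and 1.89 CPM in EAE+EHP-101 mice, 2.63, 2.15 and 2.59 CPM in EAE mice and 3.35, 4.21 and 4.55 CPM in Control mice. All mice of both EAE groups were below all Control mice, and the gene fell by 0.72 on the log2 scale in EAE (SE 0.17, adjusted p 0.00757). Kcnk13 (THIK1), known as the resting potassium channel of microglia, had 47.3, 49.1 and 43.6 CPM in EAE+EHP-101 mice, 42.3, 40.7 and 36.9 CPM in EAE mice and 43.2, 38.9 and 43.3 CPM in Control mice, and was not called (log2 fold change -0.06 ± 0.07, adjusted p 0.528).

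**Figure D3:**
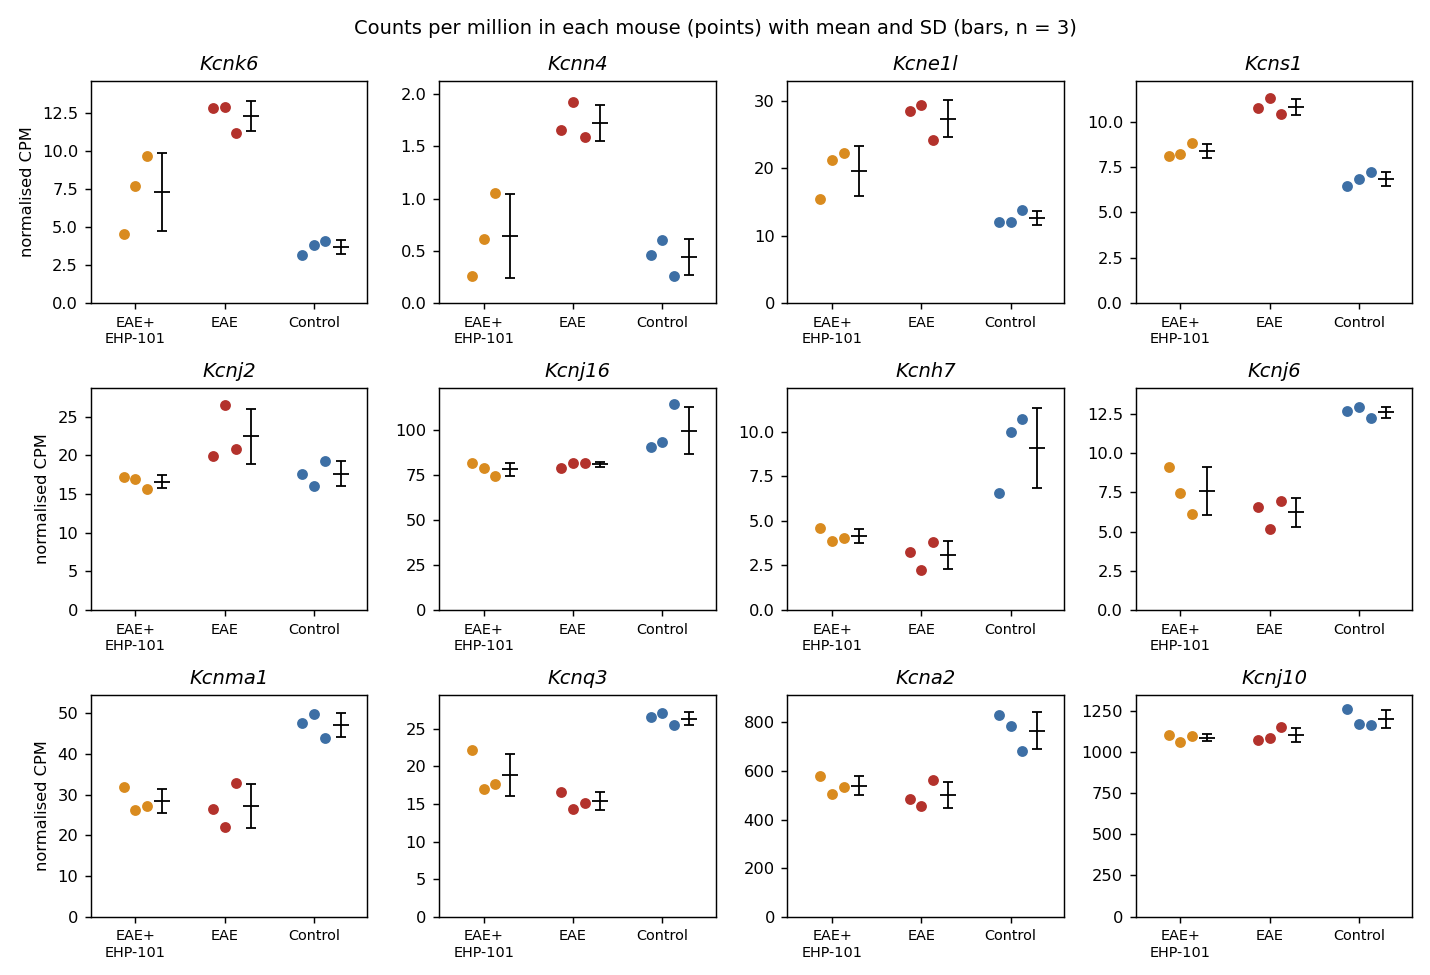
Normalised CPM of 12 members in each mouse (points) with mean and SD (bars, n = 3), groups EAE+EHP-101, EAE and Control from left to right, each axis from 0. Kcnk6, Kcnn4, Kcne1l and Kcns1 are highest in EAE, Kcnh7, Kcnj6, Kcnma1, Kcnq3 and Kcna2 are highest in Control, and Kcnj10 lies within 1060.2 to 1260.1 CPM in all 9 mice.

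Among Kv1 channels, 4 of 6 members fell in EAE and none rose, where 16.7% of all genes tested were lower and 20.2% higher. Kcna2 (Kv1.2), a juxtaparanodal channel, had 579, 505 and 536 CPM in EAE+EHP-101 mice, 486, 456 and 563 CPM in EAE mice and 831, 786 and 682 CPM in Control mice. Its log2 fold change in EAE over Control was -0.61 ± 0.09 (SE, adjusted p 0.000648), 1.53-fold lower, with all EAE mice below all Control mice. With the dependence of counts on exon length removed, as described below, it was -0.30 (adjusted p 0.0124). Kcna1 (Kv1.1) had 695, 612 and 636 CPM in EAE+EHP-101 mice, 629, 609 and 683 CPM in EAE mice and 894, 776 and 689.7 CPM in Control mice. It changed less (log2 fold change -0.30 ± 0.09, adjusted p 0.0265), and its adjusted p reached 0.0728 when single mice were left out. Kcna4 fell by 0.42 on the log2 scale, while Kcna6 (log2 fold change -0.03 ± 0.05) and Kcna5 (-0.32 ± 0.18) were not called. None of the beta subunits Kcnab1, Kcnab2 and Kcnab3, which bind Kv1 channels in the cytosol, was called (log2 fold changes of -0.14, -0.09 and -0.10).

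Kcnb2 (Kv2.2), a delayed rectifier of neurons, had 5.21, 3.49 and 3.87 CPM in EAE+EHP-101 mice, 3.38, 2.53 and 4.21 CPM in EAE mice and 6.77, 7.4 and 5.77 CPM in Control mice, a log2 fold change of -0.98 ± 0.20 (SE, adjusted p 0.00312). All 3 EAE mice were below all 3 Control mice.

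Among the Kv3 channels, known from fast-spiking neurons, Kcnc2 had 88.2, 80.4 and 82.5 CPM in EAE+EHP-101 mice, 80.1, 69.5 and 77.4 CPM in EAE mice and 92.4, 109.5 and 110.3 CPM in Control mice, and fell by 0.46 on the log2 scale (SE 0.08, adjusted p 0.00132). Kcnc1 fell by 0.30 (SE 0.09, adjusted p 0.0254), with an adjusted p of up to 0.064 when single mice were left out. Kcnc4 was not called.

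The A-type Kv4 channels Kcnd2 and Kcnd3 fell by 0.28 and 0.44 on the log2 scale (adjusted p 0.0153 and 0.0175). Kcnd2 had 66.3, 63.9 and 62.4 CPM in EAE+EHP-101 mice, 65.7, 57 and 61.3 CPM in EAE mice and 67.5, 74 and 81.7 CPM in Control mice. For Kcnd3 1 Control mouse, at 52.3 CPM, lay below 1 EAE mouse at 54.8 CPM, and its adjusted p reached 0.0566 when single mice were left out. Of the 4 Kv4-binding proteins, Kcnip4 fell (log2 fold change -0.33 ± 0.09, adjusted p 0.0147), and Kcnip1, Kcnip2 and Kcnip3 were not called. Kcnip3 had the narrowest range of the 81 members relative to its level, at 78.6 to 84.7 CPM over all 9 mice.

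In the Kcnh family, which includes the ether-a-go-go and ERG channels that shape firing rate and repolarisation, 4 of 8 members fell and none rose. Of all genes tested, 16.7% were lower in EAE. Kcnh7 (ERG3, chr2:62702946-63184287, minus strand) had the steepest fall of all members, with 4.61, 3.85 and 4.03 CPM in EAE+EHP-101 mice, 3.26, 2.24 and 3.8 CPM in EAE mice and 6.57, 9.97 and 10.7 CPM in Control mice. The 6 mice of both EAE groups lay below all Control mice, and the log2 fold change in EAE over Control was -1.55 ± 0.21 (SE, adjusted p 0.000333), 2.93-fold lower. Kcnh5 (EAG2) had 10.3, 9.28 and 8.13 CPM in EAE+EHP-101 mice, 8.46, 5.45 and 8.3 CPM in EAE mice and 14.1, 13.4 and 13.1 CPM in Control mice, a log2 fold change of -0.87 ± 0.15 (SE, adjusted p 0.0013). Kcnh1 and Kcnh2 fell less, by 0.35 and 0.27, and the adjusted p of Kcnh2 reached 0.0823 when single mice were left out.

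In the Kcnq family, whose neuronal subunits form the M current that restrains repetitive firing, Kcnq3 had 22.1, 16.9 and 17.6 CPM in EAE+EHP-101 mice, 16.6, 14.4 and 15.2 CPM in EAE mice and 26.5, 27.1 and 25.4 CPM in Control mice, a log2 fold change of -0.78 ± 0.10 (SE, adjusted p 0.000246). All 3 EAE mice were below all 3 Control mice. Kcnq5 fell by 0.32 on the log2 scale, and Kcnq1 was not called.

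Of the large-conductance calcium-activated (BK) channel genes, the pore subunit and 2 of 3 beta subunits fell. The pore subunit Kcnma1 had 31.9, 26.2 and 27.3 CPM in EAE+EHP-101 mice, 26.5, 22 and 32.8 CPM in EAE mice and 47.6, 49.8 and 44 CPM in Control mice, and fell by 0.80 on the log2 scale in EAE (SE 0.13, adjusted p 0.000707). The beta subunit Kcnmb1, best known from vascular smooth muscle, had 0.544, 0.905 and 0.704 CPM in EAE+EHP-101 mice, 0.725, 0.481 and 0.437 CPM in EAE mice and 1.18, 1.58 and 1.21 CPM in Control mice, a log2 fold change of -1.27 ± 0.28 (SE, adjusted p 0.00437). All EAE mice were below all Control mice for both.

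Beside the fall of Kcnmb1, 3 of 6 mural cell markers were lower in EAE and 1 was higher, with sums of 84.1 to 107 CPM in EAE+EHP-101 mice, 80.8 to 98.5 CPM in EAE mice and 80.8 to 132 CPM in Control mice. Of all genes tested, 16.7% were lower in EAE and 20.2% higher. All 6 endothelial markers were lower, with sums of 121 to 139 CPM in EAE+EHP-101 mice, 61.0 to 108 CPM in EAE mice and 133 to 223 CPM in Control mice. The part of these cells was not tested. Kcnmb2 fell by 0.57 on the log2 scale (adjusted p 0.0365, up to 0.099 when single mice were left out), and Kcnmb4 was not called, with 28.5% of its exon length under the opposite-strand gene Kcnmb4os1. Kcnmb4os1 itself had 0 or 1 counts in each library. Of the sodium-activated channels, Kcnt2 fell by 0.44 and Kcnt1 was not called. In the small-conductance family, Kcnn3 fell by 0.28 (adjusted p 0.014), and Kcnn1 and Kcnn2 were not called.

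Of the 12 inward rectifiers 4 fell and 1 rose, where 16.7% of all genes tested were lower and 20.2% higher. Among those that fell were 2 of 4 G protein-gated channels, which carry slow inhibition. Kcnj6 (GIRK2) had 9.15, 7.47 and 6.12 CPM in EAE+EHP-101 mice, 6.55, 5.19 and 6.92 CPM in EAE mice and 12.7, 12.9 and 12.2 CPM in Control mice, a log2 fold change of -1.02 ± 0.15 (SE, adjusted p 0.000439). Kcnj3 (GIRK1) had 27.1, 22.7 and 22 CPM in EAE+EHP-101 mice, 24.1, 19.3 and 26.4 CPM in EAE mice and 34.4, 31.8 and 31.5 CPM in Control mice, a log2 fold change of -0.48 ± 0.11 (SE, adjusted p 0.0065). Both genes were lower in every mouse of the 2 EAE groups than in every Control mouse. Their relatives Kcnj5 (log2 fold change -0.80 ± 0.31, adjusted p 0.0651) and Kcnj9 (-0.08 ± 0.08, adjusted p 0.454) were not called.

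The glial channel Kcnj10 (Kir4.1) had 1103, 1060.2 and 1095 CPM in EAE+EHP-101 mice, 1072, 1086 and 1153 CPM in EAE mice and 1260.1, 1167 and 1163 CPM in Control mice. All EAE mice were below all Control mice, their mean was 92.2% of the Control mean, and the gene was not called (log2 fold change -0.12 ± 0.06, adjusted p 0.145). Over the same mice 3 of 9 astrocyte markers were higher in EAE and none lower, where 20.2% of all genes tested were higher. Of the ATP-sensitive channels, which close when the cell's ATP is high, Kcnj11 (Kir6.2) had 35.1, 33.3 and 34.6 CPM in EAE+EHP-101 mice, 29.6, 30.9 and 32.5 CPM in EAE mice and 38.3, 40.5 and 35.6 CPM in Control mice, and fell by 0.30 on the log2 scale (adjusted p 0.00471). Kcnj8 (Kir6.1) was not called (log2 fold change 0.08 ± 0.25), while its regulatory subunit Abcc9, a mural cell gene, fell by 0.90 (SE 0.19, adjusted p 0.00382).

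Of the 11 two-pore domain members, Kcnk6 and Kcnk7 rose and Kcnk10 (TREK2) fell, by 0.36 on the log2 scale (adjusted p 0.0158). Kcnk1 (TWIK1), the most abundant of them, had 102, 100.9 and 105 CPM in EAE+EHP-101 mice, 103, 111 and 112 CPM in EAE mice and 113, 102 and 97.5 CPM in Control mice, and was not called. Kcnk2 (TREK1), opened by stretch and lipids, had 21.2, 23.1 and 21.2 CPM in EAE+EHP-101 mice, 20.9, 19.9 and 22.1 CPM in EAE mice and 22.4, 24 and 24.5 CPM in Control mice (log2 fold change -0.17 ± 0.07, adjusted p 0.0797). The 8 two-pore members that were not called had log2 fold changes between -0.71 for Kcnk9 and 0.08 for Kcnk5.

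Genes of proteins that place or accompany these channels were also more often lower than higher in EAE. Of 45 such genes 18 were lower, 4 were higher and 23 were not called, with a median log2 fold change of -0.21, where 16.7% of all genes tested were lower and 20.2% higher. Dlg2, a scaffold of juxtaparanodal Kv1 channels, had 194, 177 and 175 CPM in EAE+EHP-101 mice, 171, 157 and 173 CPM in EAE mice and 227, 239 and 245 CPM in Control mice, a log2 fold change of -0.50 ± 0.06 (SE, adjusted p 0.00021). Cntnap2 (Caspr2), which anchors Kv1 channels beside the nodes, fell by 0.70 (SE 0.10, adjusted p 0.000407), and Ank3 (ankyrin-G), which holds M channels at initial segments and nodes, by 0.53 (SE 0.08, adjusted p 0.000393). The potassium-chloride cotransporter Slc12a4 rose by 0.48 ± 0.07 (SE, adjusted p 0.00047). By list, 6 of 13 juxtaparanodal genes, 4 of 6 initial segment and node genes and 3 of 4 HCN channels fell, and of 6 sodium pump subunits 1 rose and none fell.

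**Figure D4:**
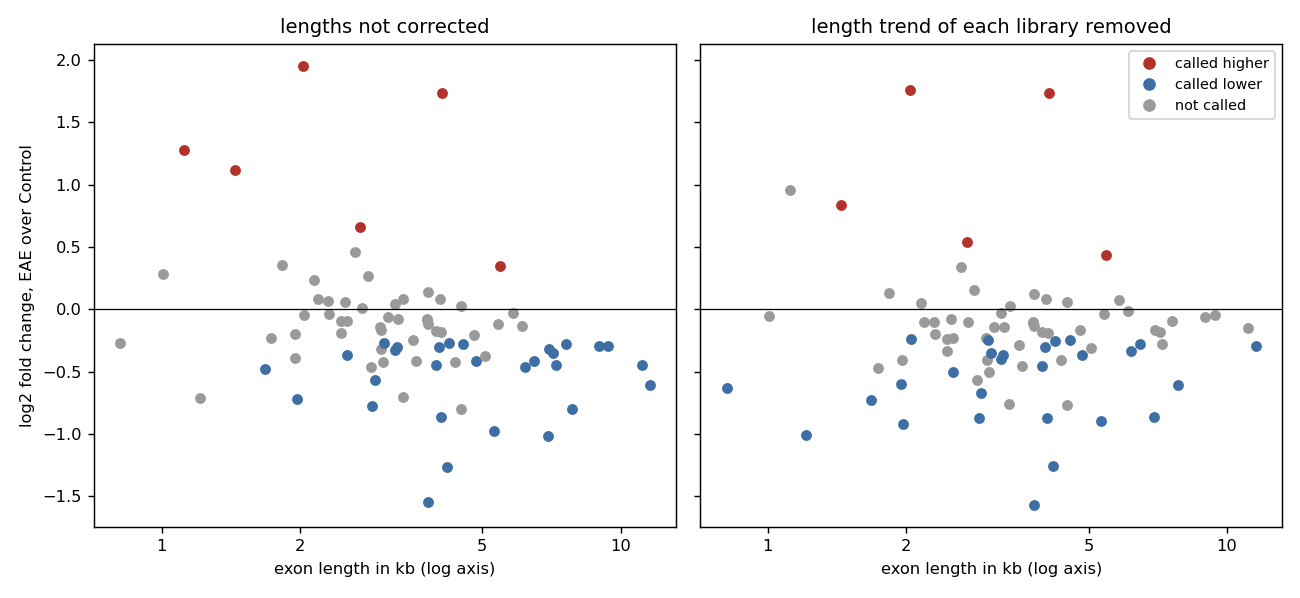
Exon length (log axis) against log2 fold change in EAE over Control for the 81 members, as measured on the left and after removal of each library's length trend on the right, coloured by call. Called falls on the left have a median length of 4.546 kb; with the trend removed 27 members are called lower and 5 higher.

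The libraries differed in how counts depended on exon length. Over all genes tested, the correlation across genes of a library's log2 CPM deviation with log2 length was 0.014, -0.234 and -0.138 in EAE+EHP-101 mice, -0.159, -0.214 and -0.142 in EAE mice, and 0.210, 0.288 and 0.182 in Control mice. Long genes thus had relatively fewer counts in EAE, and the members called lower had a median length of 4.546 kb, against 2.37 kb for those called higher, 3.02 kb for those not called and 2.765 kb over all genes tested. With each library's length trend removed, 27 members were lower (17.8% of all genes tested) and 5 higher (11.2%), 27 of the 35 calls being kept. Of the 29 members called lower 22 were kept, and 5 members were newly called lower. Among these were Kcnip2, Kcnk9, Kcnn2 and Kcnc4 (adjusted p 0.00337, 0.0155, 0.0381 and 0.0436). Kcna2, at 11.582 kb the longest member, kept its call at the value given above, while the log2 fold change of the shorter Kcnj3 (1.679 kb) was -0.73 (adjusted p 0.00132). Among the 8 lost were Kcna1, Kcnc1, Kcnd3, Kcnh1, Kcnk7, Kcnn3 and Kcnq5. Over all genes, the share of calls that were higher in EAE was 38.5% with the trend removed, against 54.8% without.

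In EAE+EHP-101 against EAE, the comparison that asks what the compound changed in diseased mice, few potassium channel genes passed the test. Of the 81 members 2 were called, where 5.24% of all genes tested were called in either direction. None was higher (0.43% of all genes tested were) and 2 were lower (2.47%, against 4.81% of all genes tested). At an unadjusted p under 0.05 there were 4 higher and 5 lower, 11.1% of the members, against 16.2% of all genes tested. The median log2 fold change was 0.09, against 0.00 over all genes tested, with 62 of 81 members above 0. Each treated mouse was above each EAE mouse for 11 members (10.7% of all genes tested) and below for 7 (16.9% of all genes tested).

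The 2 members that fell were Kcns1 and Kcnj2, both of which were higher in EAE over Control, a comparison that uses the same EAE mice. Kcns1 fell by 0.37 on the log2 scale (SE 0.09, adjusted p 0.0399) to levels between those of EAE and Control mice. Kcnj2 fell by 0.43 (SE 0.11, adjusted p 0.0473), with all treated mice below all EAE mice and within or below the Control range. Neither call held with each mouse left out in turn: Kcns1 was called only without Control replicate 3, and Kcnj2 only without that mouse or EAE replicate 1. Without EAE replicate 2 the adjusted p was 0.21 for Kcns1 and 0.222 for Kcnj2.

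Of the other members that rose in EAE, Kcnn4, Kcnk6 and Kcne1l had values below 0 without a call. Kcnn4 had a log2 fold change of -1.42 ± 0.38 in EAE+EHP-101 over EAE (SE, adjusted p 0.0565), Kcnk6 -0.75 ± 0.21 (SE, adjusted p 0.0666) and Kcne1l -0.48 ± 0.13 (SE, adjusted p 0.0595). For each of these 3 genes all treated mice were below all EAE mice. With the Wald test of DESeq2 they were called lower, with adjusted p of 0.0311, 0.0142 and 0.0154. Each was called in 2 of 8 other alternatives, DESeq2 among them. They were called in 2, 1 and 1 of 9 edgeR fits with a mouse left out, where adjusted p reached 0.211, 0.234 and 0.260. With the length trend removed none of the genes was called (adjusted p 0.0595, 0.0648 and 0.0864). The infiltrating myeloid, T cell and microglia sums given above were also lower in every treated mouse than in every EAE mouse. The neutrophil sums were not, and overlapped between the groups: all 5 tested neutrophil markers had log2 fold changes above 0 in EAE+EHP-101 over EAE, with a median of 1.21 and none called, and all 5 were called higher in EAE+EHP-101 over Control. The part of these cells was not tested.

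None of the 29 members that fell in EAE was called in this comparison. Kcnh7 had a log2 fold change of 0.42 ± 0.22 in EAE+EHP-101 over EAE (SE, adjusted p 0.397) and Kcnq3 0.30 ± 0.10 (SE, adjusted p 0.15). Kcnip2, a Kv4-binding protein not called in EAE over Control, had 0.36 ± 0.12 (SE, adjusted p 0.142). With the length trend removed, Kcnip2 (0.813 kb) was called lower in EAE over Control (-0.63, adjusted p 0.00337). In that fit it was called higher in EAE+EHP-101 over EAE (0.48, adjusted p 0.0498) and not called in EAE+EHP-101 over Control (-0.15, adjusted p 0.50). In these 3 genes every treated mouse was above every EAE mouse. Treated and EAE mice overlapped for Kcna2 (0.11 ± 0.09, adjusted p 0.65), Kcnma1 (0.07 ± 0.13, adjusted p 0.843) and Kcnj10 (-0.02 ± 0.06, adjusted p 0.887). Of the 45 partner genes none was called in this comparison, where 5.24% of all genes tested were called.

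In EAE+EHP-101 against Control, which sets treated mice against mice without EAE, 18 members were called, where 19.8% of all genes tested were called in either direction. Of these 15 were lower (18.5%, against 9.82% of all genes tested), 3 were higher (3.7%, against 9.96%), and the median log2 fold change was -0.14, against 0.01 over all genes tested. At an unadjusted p under 0.05 there were 30 members (35.1% of all genes tested), and each treated mouse was below each Control mouse for 23 members (17.5% of all genes tested) and above for 7 (19% of all genes tested). The EAE and EAE+EHP-101 mice were set against the same Control mice, so the 2 comparisons share their spread. The higher members were Kcnk6 (0.99 ± 0.23, adjusted p 0.0145), Kcne1l (0.63 ± 0.14, adjusted p 0.0115) and Kcns1 (0.29 ± 0.09, adjusted p 0.0483). The Kcns1 call held in 1 of 9 fits with a mouse left out and in 2 of 8 other alternatives, with adjusted p of up to 0.180. Those of Kcnk6 and Kcne1l were lost without treated replicate 2 (adjusted p 0.0683 and 0.0631) or 3 (0.0617 and 0.054). Each stood nearer to 0 than in EAE over Control, where the same genes had 1.74 ± 0.22, 1.11 ± 0.13 and 0.66 ± 0.09.

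Among the lower members Kcnh7 again changed most, with a log2 fold change of -1.13 ± 0.21 in EAE+EHP-101 over Control (SE, adjusted p 0.00735). Kcna3 had -0.89 ± 0.17 (SE, adjusted p 0.0088), further from 0 than its -0.72 ± 0.17 in EAE, although the treated and EAE mice overlapped. Kcnmb1, Kcnj6, Kcnma1, Kcnb2, Kcnh5 and Kcna2 followed, with -0.88, -0.73, -0.73, -0.66, -0.55 and -0.51. The calls of Kcnmb1, Kcnb2 and Kcnh5 held in 4, 4 and 5 of 9 fits with a mouse left out. Their adjusted p reached 0.122, 0.149 and 0.103 in those fits, and their calls were lost with the length trend removed. Others called lower were Kcnq3, Kcnj3, Kcnn3, Kcnj16, Kcnc2 and Kcns3, between -0.48 and -0.21. The calls of Kcnn3, Kcnj16, Kcnc2 and Kcns3 were lost with the length trend removed. That of Kcns3 held in 4 of 9 fits with a mouse left out and in 3 of 8 other alternatives. Of the 18 calls in both directions, 4 held with each mouse left out in turn. Only 3, those of Kcna2, Kcnh7 and Kcnma1, held under every alternative.

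**Figure D5:**
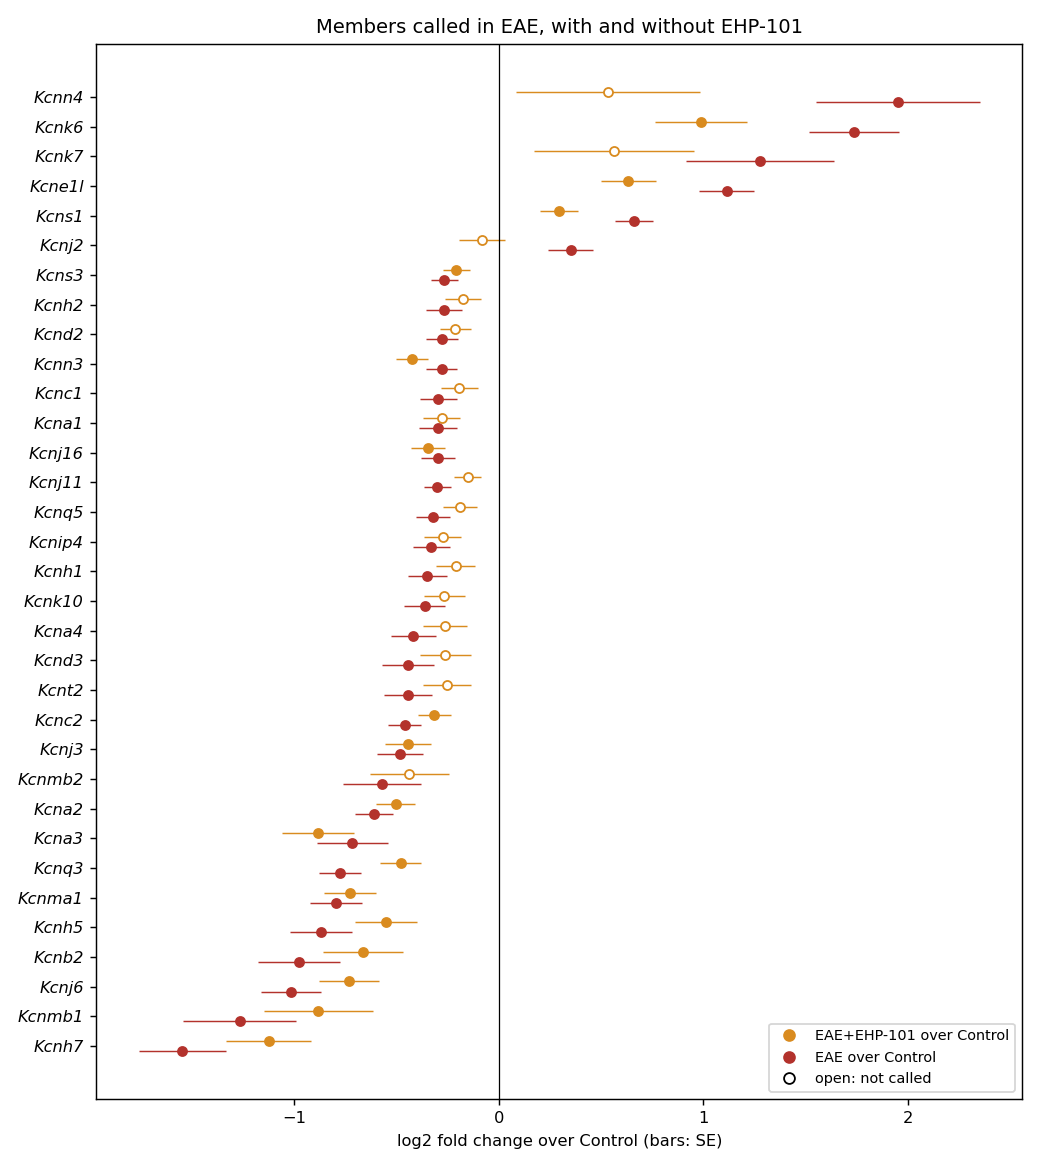
Log2 fold change over Control with SE for 33 members called in EAE, EAE+EHP-101 over Control in orange and EAE over Control in red, with open points where the gene was not called. The 6 members at the top rose in EAE, and of these Kcnk6, Kcne1l and Kcns1 are also called in EAE+EHP-101 mice.

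These counts depended on single mice. Of the 18 calls, 7 were lost without Control replicate 1 and 6 without Control replicate 2. Without Control replicate 3 all 18 were kept and 6 more members were called. Without treated replicate 2 there were 4 lower and no higher members, and without treated replicate 3 there were 7 lower and no higher. The 4 lower members kept without replicate 2 were Kcna2, Kcnh7, Kcnma1 and Kcnn3. With the length trend removed, 7 members were lower (4.8% of all genes tested) and 2 higher (3.59%) in EAE+EHP-101 over Control, where Kcna2 had -0.27 (adjusted p 0.0442). Without that removal, 10 of the 45 partner genes were lower than Control (9.82% of all genes tested) and 1 was higher (9.96%). With the length trend removed, 4 partner genes were lower and 3 higher.

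Promoter windows were found for 58 members, 81 windows in all, among them 5 of the 6 members higher in EAE and 23 of the 29 lower. On both strands, 8 motifs were searched. CACGTG was in 7 member windows (8.64%), against 7.15% of all 32851 windows, in Kcnn4 and Kcnj2, printed above, and in Kcnab1, Kcne4, Kcnh4 and Kcnk5, which were not called in EAE. The IRF motif was in 6 member windows (7.41%), against 3.44% of all windows, in Kcnj16 as printed, Kcnc2 and Kcnd2, which were lower in EAE, and Kcnab1, which was not called. TTCAGCACC and GGACAGCG were each in 1 window, of Kcnh6 and Kcnj4, against 0.371% and 1.26% of all windows. GAGGAAGT, the NF-kappaB motif, TTCCNGGAA and TGACGTCA were in no member window, against 3.2%, 0.411%, 1.15% and 1.79% of all windows. The member windows held a median of 10 CpG, against 7 over all windows.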

How the data were processed

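Stranded libraries were made from spinal cord RNA by poly-A selection and read from a single end, per the labels' protocols. The deposited values are raw read counts per gene under Entrez identifiers, with exon lengths, per the file headers. Per the submitters' processing notes, the tools were featureCounts 1.6.1, HISAT2 2.1.0, Trimmomatic 0.36 and DESeq2 1.20.0, with build mm10 and no roles stated. The sources used here do not state the strand setting or how multiply mapped reads were counted, so reads of genes that overlap on opposite strands (Kcnmb4, Kcnn2, Kcnk3 and others) cannot be told apart. Symbols came from a RefSeq table (25275 of 27179 identifiers matched). The 1904 unmatched identifiers held 0.311% to 0.619% of a library's counts.

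In R 4.3.3, edgeR 4.0.16 kept 16749 genes (filterByExpr), scaled libraries by TMM and fitted 1 quasi-likelihood model with 3 group means to all 9 libraries; SE was taken as log2 fold change over the square root of F. All p-values rest on the spread among the 9 mice of 1 experiment. No pair of libraries of a group agreed within sampling noise. Members, subfamily, partner and marker lists were chosen with earlier results of these data known. Members were named by the largest changes per comparison, a fixed set, and subfamily counts. Alternatives were DESeq2 1.42.0 size factors and Wald test, library totals, other count filters, a replicate block, removal of a length trend (spline with 4 degrees of freedom), fits of 2 groups alone and leaving out each library. Values of some genes are not reported here, while counts over members include them.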

Additional observations from a re-analysis of the deposited data

How the results depend on the processing

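Of the 35 members called in EAE against Control, 28 kept their call with each of the 9 libraries left out in turn and 24 under every alternative tried. The counts of members in EAE against Control stayed within 1.5 times under every alternative, with 24 to 35 lower and 4 to 6 higher when 1 library was left out. Partner genes called higher there ran from 2 to 5, and all genes called higher from 2160 to 3399, with 1873 after removal of the length trend. For EAE+EHP-101 against EAE, the 2 members called lower became 4 without a low count filter, 5 with the DESeq2 Wald test, 1 with only those groups in the fit, and 0 to 3 with 1 library left out; with the length trend removed 0 were lower and 1, Kcnip2, was higher. Partner genes called higher were 1 with DESeq2, 1 with only those groups, and 0 to 2 in the leave-one-out fits. All genes called higher, 72, became 143 with DESeq2, 142 with the length trend removed and 169 with only those groups, and ran from 22 to 249 in the leave-one-out fits, where those called lower ran from 348 to 921 around 805. For EAE+EHP-101 against Control, leave-one-out fits gave 0 to 4 members higher and 4 to 21 lower, 0 to 2 partner genes higher and 4 to 13 lower, and 237 to 1712 genes higher and 392 to 2065 lower. Partner genes called higher, 1, became 2 with library totals, 2 with DESeq2 and 3 with the length trend removed, which left 4 partner genes and 7 members lower, and 601 genes higher and 804 lower. The share of calls that were higher was 62.3% with library totals, against 50.4%. The cause was not tested, beyond the smaller number of mice where one was left out.

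Replicate numbers stand in every group, and the labels do not say whether they pair the mice. Deviations of samples that share a number had correlations from -0.187 to 0.123. Those of samples with different numbers ran from -0.175 to 0.246. The deviations are from means of only 3 mice, so these values cannot decide whether the numbers pair the mice. With the replicate block, 5 members were higher and 28 lower in EAE against Control, 0 and 0 in EAE+EHP-101 against EAE, and 2 and 12 in EAE+EHP-101 against Control; all genes called higher were then 44 in EAE+EHP-101 against EAE and 1095 in EAE+EHP-101 against Control. Depth limits the precision of members near 10 counts, such as Kcnk7, Kcng3 and Kcnj4.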

Other observations

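Some members varied widely within the Control group, beside motor neuron markers. The 5 motor neuron markers summed to 276, 243 and 246 CPM in EAE+EHP-101 mice, 207, 240.5 and 296 CPM in EAE mice, and 367, 223 and 196 CPM in Control mice. Kcng4 (Kv6.4), a silent subunit, had 131, 121 and 129 CPM in EAE+EHP-101 mice, 117, 117 and 141 CPM in EAE mice and 151, 104 and 84.8 CPM in Control mice. Kcnj14 (Kir2.4), known from cranial motor nuclei of the rat, had 17.1, 16.4 and 17.5 CPM in EAE+EHP-101 mice, 15.9, 16.6 and 17.9 CPM in EAE mice and 17.5, 10.9 and 8.22 CPM in Control mice. Control replicate 1 was the highest Control mouse in all of these values. The two-pore channel Kcnk9 (TASK3) had 19.8, 14.5 and 13.4 CPM in EAE+EHP-101 mice, 12.3, 11 and 22.7 CPM in EAE mice and 31.5, 24.3 and 19.4 CPM in Control mice, highest in the same Control mouse, with a log2 fold change of -0.71 ± 0.26 in EAE over Control (SE, adjusted p 0.0509). The sodium-activated Kcnt1 (193, 184 and 198 CPM in EAE+EHP-101 mice, 174, 143 and 168 CPM in EAE mice and 203, 202 and 128 CPM in Control mice) was lowest among Control mice in replicate 3. The part of motor neuron content in these differences was not tested.

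The non-coding Kcnq1ot1, which is not a member, had 443, 484 and 501 raw counts in EAE+EHP-101 mice, 400, 343 and 405 in EAE mice and 490, 607 and 513 in Control mice, at similar library totals. Its test result is not given here. It shares 3.99% of the exon length of Kcnq1 on the opposite strand.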
